A study of Mus musculus with 25 samples.

Results

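Broad promoter peaks are defined here as open-chromatin regions of 2000 bases or more in the merged peak table that overlap a start site of transcription (TSS) of any protein-coding gene annotated in GENCODE for mm10, with the mitochondrial chromosome left out. Of 45672 peaks in the series, 536 reached that width and 405 of these were broad promoter peaks. The other 131 wide peaks held no such TSS or were mitochondrial, and 11507 narrower peaks covered a protein-coding TSS. These 405 peaks, also called members below, held the TSSs of 476 genes. Accessibility was measured by ATAC-seq, in which a transposase inserts sequencing adapters where DNA is not wrapped in nucleosomes. Cultured astrocytes from the cerebral cortex (grey matter in the labels, white matter in the methods of the study) of wild-type C57BL/6J pups (postnatal day 5 to 6 in the labels, slightly older in the series text) were expanded for 10 days with bFGF only (10 ng/ml) or with EGF and bFGF (10 ng/ml each). They were then transduced with retroviruses that drive their cargo and a fluorophore from the CAG promoter, for Neurog2 and Hmgb2 together, Neurog2 alone, Hmgb2 alone, or GFP as Control. Transduced cells were sorted by fluorophore 48 h later, and 50000 cells entered each library. A retrovirus of this type enters the genome of dividing cells only, so the sorted cells are the dividing part of the culture.

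The 8 groups were bFGF Neurog2+Hmgb2, bFGF Neurog2, bFGF Hmgb2, bFGF Control, EGF+bFGF Neurog2+Hmgb2, EGF+bFGF Neurog2, EGF+bFGF Hmgb2 and EGF+bFGF Control, with 3 libraries each except 4 for EGF+bFGF Hmgb2, 25 in all. Whether replicates were separate cultures or animals is not given, so the p-values measure the spread between libraries. The deposited values are rlog values (regularized log2 counts from DESeq2). Read depth and error from counting are therefore unknown, and a difference of 1 is a doubling on this scale. The transformation shrinks differences where counts are low.

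A promoter is the stretch around a TSS where RNA polymerase and general factors assemble. Most mammalian promoters lie in CpG islands, GC-rich stretches that are open in many cell types, and a wide open region often goes with several start sites or with regulatory genes such as transcription factors. Neurog2 is a proneural transcription factor that binds E-boxes of the form CAGATG and starts the neuronal programme, while Hmgb2 is an abundant DNA-bending high mobility group protein of proliferating cells. Both were supplied by virus, so the comparisons ask whether the widest promoters of astrocytes change their accessibility early in conversion towards neurons.

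Promoter sequences are shown for the members with the strongest Neurog2 differences that have an entry in the RefSeq promoter table (GRCm38.p6, 250 bases before to 50 after the start), because the calls below turn on them. Capitals mark the E-box CAGATG, the AP-1 site TGAGTCA, the TEAD site GGAATG and the GC box GGGCGG, each on either strand, and no other bases. The first 3 were higher with Neurog2 and the last 2 lower.
Rcor2 (chr19:7267144-7267443, plus strand): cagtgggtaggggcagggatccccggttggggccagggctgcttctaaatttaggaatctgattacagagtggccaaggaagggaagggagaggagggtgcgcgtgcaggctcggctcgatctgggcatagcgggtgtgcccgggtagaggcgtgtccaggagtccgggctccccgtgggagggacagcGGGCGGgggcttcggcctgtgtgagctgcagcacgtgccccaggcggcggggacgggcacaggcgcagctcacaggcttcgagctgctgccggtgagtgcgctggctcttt
Hes6 (chr1:91413173-91413472, minus strand): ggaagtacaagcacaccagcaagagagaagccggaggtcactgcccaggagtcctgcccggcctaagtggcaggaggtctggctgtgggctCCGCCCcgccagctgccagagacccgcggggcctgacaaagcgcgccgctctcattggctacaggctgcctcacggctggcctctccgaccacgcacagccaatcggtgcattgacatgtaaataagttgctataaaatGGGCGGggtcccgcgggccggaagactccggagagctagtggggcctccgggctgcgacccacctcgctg
Gse1 (chr8:120537159-120537458, plus strand): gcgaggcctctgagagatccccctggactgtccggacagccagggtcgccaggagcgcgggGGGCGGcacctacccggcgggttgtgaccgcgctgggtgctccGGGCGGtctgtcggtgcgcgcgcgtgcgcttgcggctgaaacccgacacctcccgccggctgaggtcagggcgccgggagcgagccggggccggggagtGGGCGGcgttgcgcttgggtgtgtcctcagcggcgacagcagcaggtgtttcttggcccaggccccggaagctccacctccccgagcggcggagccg
Csrnp1 (chr9:119982974-119983273, minus strand): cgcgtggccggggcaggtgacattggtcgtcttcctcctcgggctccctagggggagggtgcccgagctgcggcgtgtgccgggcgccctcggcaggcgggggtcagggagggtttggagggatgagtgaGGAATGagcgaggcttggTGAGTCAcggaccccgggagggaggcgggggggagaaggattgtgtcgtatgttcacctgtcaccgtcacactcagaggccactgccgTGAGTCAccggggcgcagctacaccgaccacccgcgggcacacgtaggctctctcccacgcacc
Tagln2 (chr1:172499996-172500295, plus strand): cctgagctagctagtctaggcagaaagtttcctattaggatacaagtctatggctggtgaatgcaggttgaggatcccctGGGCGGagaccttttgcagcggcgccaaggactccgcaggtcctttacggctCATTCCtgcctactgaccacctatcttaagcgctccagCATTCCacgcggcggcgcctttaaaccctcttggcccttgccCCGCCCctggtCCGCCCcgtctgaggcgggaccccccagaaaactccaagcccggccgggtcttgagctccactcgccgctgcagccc
Rcor2, Hes6 and Gse1 held 1, 2 and 3 GC boxes in these windows and no E-box, AP-1 or TEAD letters. Csrnp1 held 2 AP-1 sites, 1 TEAD site and no GC box, and Tagln2 held 2 TEAD sites and 3 GC boxes. The Rcor2, Hes6 and Gse1 peaks each held 1 CAGATG elsewhere in the peak. Those of Hes6 and Gse1 are shown with 30 bases on each side, read on the strand of the gene with the E-box in capitals.
Hes6 E-box (chr1:91414323-91414388): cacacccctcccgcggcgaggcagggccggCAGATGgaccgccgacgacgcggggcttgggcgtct
Gse1 E-box (chr8:120536091-120536156): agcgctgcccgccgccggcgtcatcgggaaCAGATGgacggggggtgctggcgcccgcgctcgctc
Relative to the nearest annotated TSS, these E-boxes lay at -1133 bases for Hes6 and 266 bases for Gse1, where negative is upstream. For Gse1 that TSS is not the start shown above, and the E-box lies upstream of the promoter window shown.

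Before the comparisons, the libraries were checked on the transduced genes. The Neurog2 gene has a peak of width 1380 (chr3:127633550-127634928) that holds its whole coding sequence of 789 bases but no TSS, so it is not a broad promoter peak. Its rlog value was 10.60 to 16.06 (median 14.21) in the 12 libraries labelled with Neurog2, against 6.76 to 12.70 (median 7.87) in the 13 labelled without. Only 9 of the 12 lay above all 13, because the library labelled EGF+bFGF Hmgb2 replicate 1 had 12.32 and that labelled bFGF Hmgb2 replicate 1 had 12.70 at this peak. The lowest value of the 12, 10.60, was in bFGF Neurog2 replicate 2, barely above EGF+bFGF Control replicates 1 (10.32) and 2 (10.49). The peak thus gave little sign of the Neurog2 virus in that library.

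A set of 7 libraries stood apart at the Sox2 member (chr3:34649292-34651436), which covers the promoter and coding sequence of the stem-cell and astrocyte factor Sox2. These were bFGF Neurog2+Hmgb2 replicate 1, bFGF Neurog2 replicate 1, bFGF Hmgb2 replicate 1, EGF+bFGF Neurog2+Hmgb2 replicate 2, EGF+bFGF Neurog2 replicate 2, EGF+bFGF Hmgb2 replicate 1 and EGF+bFGF Control replicate 2, thus 1 library in each of 7 groups and none in bFGF Control. Sox2 had 11.36 to 12.36 in these 7 libraries, against 7.06 to 8.98 in the 18 others. The values of 12.32 and 12.70 at the Neurog2 peak named above were both in libraries of this set.

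A second member, Setd5 (chr6:113071643-113078050), behaved the same way. Its peak spans the start of Setd5, a SET domain chromatin regulator, and the start of the non-coding gene Gt(ROSA)26Sor, the Rosa26 locus often used for transgene insertion. Setd5 had 13.02 to 14.06 in the 7 libraries, against 8.80 to 10.75 in the 18 others, and its values across the 25 libraries followed those of Sox2 with a Pearson correlation of 1.00. Outside the 405, narrower peaks at the start and the end of Pgk1, a glycolytic enzyme, followed Sox2 with a correlation of 0.99 each (chrX:106186441-106187430 and chrX:106203578-106204156). In the opposite direction, 3 members were lower in all 7 libraries than in all 18 others. Mid1 (chrX:169977928-169981260), which encodes a microtubule-associated ubiquitin ligase, had 5.78 to 6.33 against 6.71 to 7.89. Gm21887 (chrX:170000928-170021121) lies near Mid1, and Gm21887 and Gm47283 are mostly repeat-masked, so these members may not be independent. Gm21887 on chromosome X had 9.03 to 9.58 against 9.74 to 11.49, and Gm47283 on chromosome Y had 10.14 to 10.79 against 10.83 to 12.39. Over all peaks, 12 (0.0263%) lay above and 17 (0.0372%) below in this sense. Setd5, Sox2, Hmgb2, Gm21887, Mid1 and Gm47283 had the largest within-group SDs of all members, 2.08 and 2.07 for Setd5 and Sox2 and 0.852 for Hmgb2, next to a median of 0.174. These 7 libraries were recognised from the values, no label names them, and what sets them apart was not tested. Whether the reads in the high peaks came from the chromosomal locus was not tested either, so their values may not be accessibility of that locus. Sox2, Setd5, Pgk1, Mid1, Gm21887 and Gm47283 were singled out here after their values were seen, apart from Sox2, Mid1, Gm21887 and Gm47283, which the naming rule also gives.

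The label of the tissue was checked on marker genes fixed for other cell types, none of which had a broad promoter peak. A TSS peak of any width was present for 9 of 12 astrocyte markers (not for Aqp4, Aldoc or S100b), 4 of 8 neuronal, 4 of 8 oligodendrocyte-lineage, 2 of 7 microglial, 1 of 5 endothelial and 3 of 8 fibroblast and mural markers. The mean over the 8 TSS peaks of neuronal markers ranged from 5.07 to 5.51 in libraries with Neurog2, against 4.87 to 5.18 in libraries without, and 4 of the 8 were called higher (11.4% of all peaks). Of 10 astrocyte marker peaks 1 was called higher, of 4 fibroblast and mural marker peaks 1 was called lower, and no marker peak of the other cell types was called. The part of such cells in the member differences was not tested, and more cells of a type cannot be told apart from more accessibility per cell.

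The broad promoter peaks had a median width of 2272 (quartiles 2097 and 2566). Widths are those of the table, which are 1 above the span from its 0-based start to its end. Most lay just above the limit, with 282 of 405 under 2500 and 10 at 5000 or more. The nearest members inside the limit were Atp8a1 (width 2000) and Sept7 (2003), whose mean rlog values were 7.94 and 7.67. Just outside lay Mtcl1 and the shared promoter of Exoc8 and Sprtn, both 1999 wide, with mean rlog values of 6.79 and 6.72.

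The 5 widest members were AC149090.1 on an unplaced contig (width 49812), a cluster of predicted genes at the start of chromosome 9 led by Gm10715 (38502), Gm47283 on Y (33674), Gm21887 on X (20195) and Sfi1, a centrosomal protein gene (16399). Repeat-masked sequence made up 96.0% of the chromosome 9 cluster, 82.6% of Gm21738, 66.3% of Gm21887 and 60.6% of Gm47283, the only members over 50% among 404 on assembled chromosomes with sequence here. For the median member it was 8.20%. Reads in these 4 may stem from other copies of the same sequence, so their levels are uncertain.

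A single gene was held by 342 members, 2 genes by 61 and more by 2. In 59 of the 61 pairs the genes ran on opposite strands, as at Nab2 with Nemp1 or Dock4 with Zfp277, so the peak spans a promoter shared head to head or a close neighbour. Alternative starts were common, since only 143 members held 1 TSS position and 55 held 5 or more. No such count for narrower TSS peaks is given here, and a wider region can hold more starts by its width alone. A start of a long non-coding RNA lay in 87 members (21.5%), against 8.31% of narrower TSS peaks, but wider regions have more room for any start. Measured from the first TSS, the 342 single-gene peaks reached a median of 928 bases upstream and 1396 bases downstream, and 241 of them reached further downstream. The downstream side takes in any later starts, whose span had a median of 54 bases and an upper quartile of 661, so part of its excess comes from the measure.

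Of 21897 protein-coding genes, 12260 (56%) had a TSS in a peak and 2.17% in a broad one, which is 3.88% of those with a peak. Transcription factors held 56 of the genes under broad peaks. Over all transcription factor lists this was 7.80% of the 718 genes with a peak, against 3.76% (41 of 1090) over all housekeeping lists. The lists were written by family name with earlier results known, and no enrichment test was run.

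Within the transcription factors the families differed. Sox factors had 3 of 12 (Sox2, Sox11, Sox12), Klf, Sp and Egr factors 5 of 20 (Klf10, Klf13, Sp3, Sp4, Egr1), nuclear factor I and Zic factors 3 of 9 (Nfib, Zic2, Zic5) and AP-1, CREB and other leucine zipper factors 8 of 40, among them Jun, Jund, Maf, Nfe2l2 and Bach2. The large group of zinc finger genes named Zfp or Zbtb had 17 of 399 (4.26%), close to the share of all genes, and T-box, Gata, Runx, Irf and Stat factors had 0 of 22. Chromatin regulators had 21 of 167 (12.6%), including the DNA methyltransferase Dnmt3a, the histone demethylase Kdm6a and the remodeller Chd7. Genes that respond to growth factor signalling had 7 of 46 (15.2%), among them Dusp6, Spry2 and Spred2, which dampen the MAP kinase pathway that EGF and bFGF drive. The actin, adhesion and YAP-TEAD list had 7 of 52 (13.5%), with Ccn1, Ccn2 and Amotl2 as known YAP targets.

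**Figure D1:**
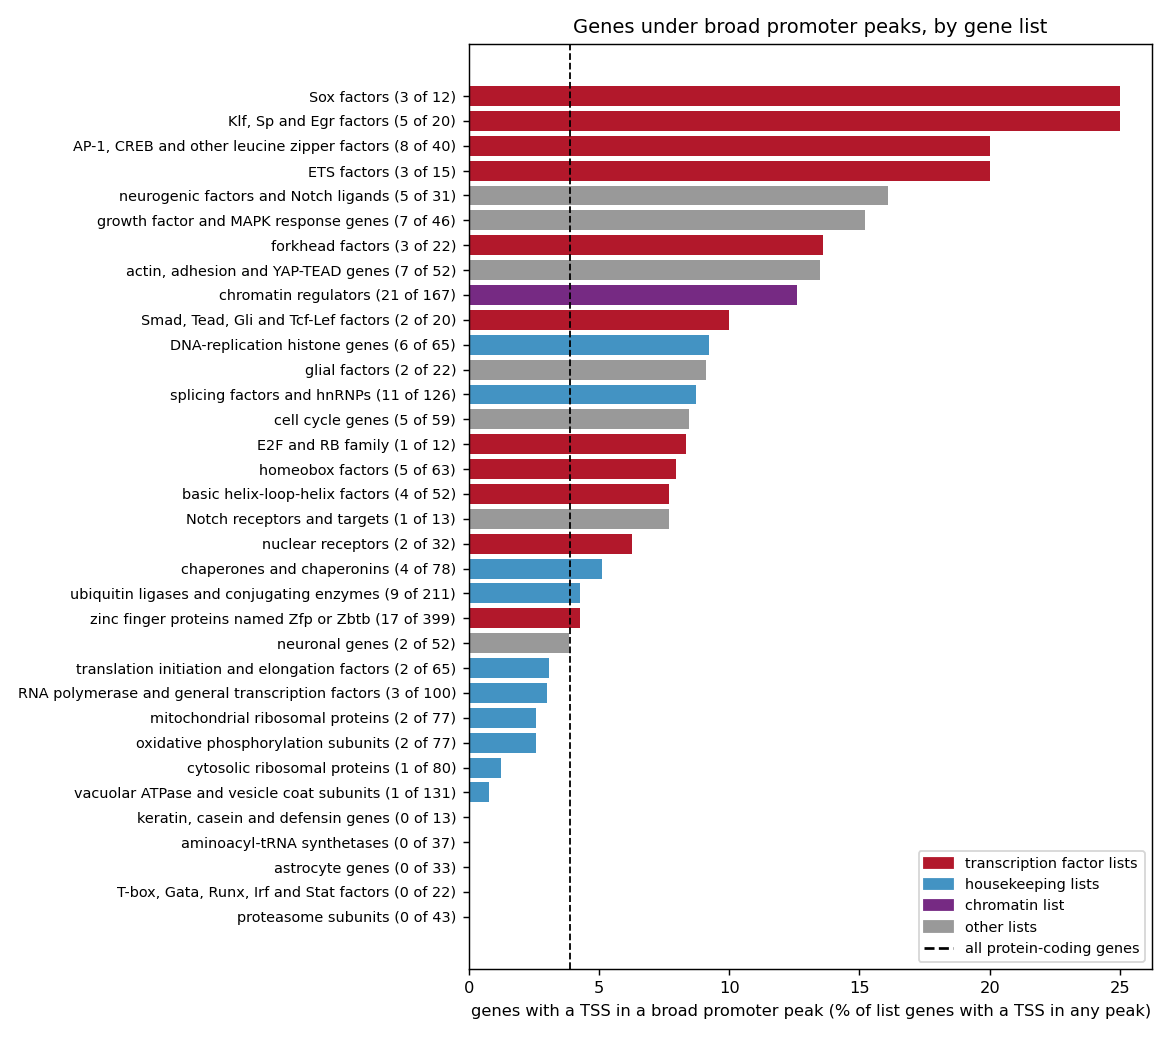
Share of genes whose TSS lies in a broad promoter peak, as a percentage of the list's genes with a TSS in any peak, for each gene list with 10 or more such genes; counts stand beside each name, bar colours give the kind of list and the dashed line is the 3.88% of all protein-coding genes. Sox and Klf, Sp and Egr factors are at 25%, and cytosolic ribosomal proteins, proteasome subunits and astrocyte genes are near or at 0.

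Housekeeping families were unevenly represented too. Cytosolic ribosomal proteins, which nearly all had a peak, had 1 of 80 (Rpl7, beside Rdh10), and proteasome subunits (0 of 43) and aminoacyl-tRNA synthetases (0 of 37) had none. Splicing factors and hnRNPs had 11 of 126 (8.73%), among them Hnrnpk, Srsf2 and U2af2. Among genes of cell identity, 0 of 33 astrocyte genes with a peak had a broad one. Glial factors had 2 of 22 (Sox2 and Nfib), neuronal genes 2 of 52 (the splicing regulator Nova1 and the ephrin Efnb2), and neurogenic factors and Notch ligands 5 of 31 (Hes6, Pou3f2, Rcor2, Sox11, Sox12). The histone members Hist2h2aa1 with Hist2h3c1 and Hist2h2aa2 with Hist2h3c2 are near-identical copies, so their separate values are uncertain.

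Broad promoter peaks were high in signal, and 404 of 405 lay in the top 10% of all peaks by mean rlog. The median was 7.68 for members, against 6.07 for narrower TSS peaks and 4.24 for peaks without a TSS. These rlog values are not scaled by width. Per length (mean rlog minus log2 of width in kb), the medians were 6.42 for members, against 6.13 for narrower TSS peaks and 5.50 for peaks without a TSS. On this per-length scale the highest members were Gm21738 (13.64), the Gm10715 cluster (11.31), AC149090.1 (8.26), Hmgb2 (8.21) and the zinc finger factor Sp4 (8.21). The lowest were Fam187a (5.02), Mid1 (5.24), the cold-sensing channel gene Trpm8 (5.35), the homeobox repressor Tgif2 (5.40) and the synaptic gene Rims2 (5.44). Sp4 is the highest member with little repeat sequence and no transduced sequence, and it had 9.09 to 9.69 in all 25 libraries. Values were steady between libraries of a group, with a median within-group SD of 0.174 for members, against 0.192 for narrower TSS peaks and 0.234 for peaks without a TSS.

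By sequence, members resembled other promoters within the peak but stayed CpG-rich over more bases. Median GC content was 62.8% in members, against 62.2% in narrower TSS peaks and 49.4% in peaks without a TSS, and the observed over expected CpG ratio was 0.767 against 0.750 and 0.206. In windows of 2001 bases round each peak's centre, the same length for both sets, median GC was 64.4% in members, against 54.2% in narrower TSS peaks, and CpG was 0.783 against 0.622. Of the 130 wide peaks outside the rule and off the mitochondrial chromosome, the 126 with sequence had a median GC of 50.8% and CpG of 0.211, values close to those of other peaks without a TSS. Of the members, 335 had a GC of 55% or more together with a CpG ratio of 0.6 or more. Exceptions lay at genes such as Trpm8, with a CpG of 0.163, and Ssc5d, with 0.221.

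Motif letters were counted on both strands from 250 bases before to 50 after each TSS, in 1124 windows under members, 25643 under narrower peaks and 54327 over all protein-coding TSSs. The GC box GGGCGG, read by Sp and Klf factors, was in 74.5% of windows under members, against 69.1% under narrower peaks and 43.1% of all. TATAAA was in 4.18%, against 4.85% and 11.3%, and CCAAT in 33.1%, against 37.1% and 35.9%. The ETS letters CCGGAAG were in 9.96%, against 19.1% and 10.7%. The E-box CAGATG was in 9.43%, against 9.94% and 15%, and TGAGTCA (AP-1) in 2.85%, against 3.17% and 4.31%. GGAATG (TEAD) was in 9.07%, against 10.3% and 13%, TGACGTCA (cyclic AMP response element) in 2.94%, against 3.51% and 2.06%, and the CArG box of serum response factor in 0.979%, against 1.11% and 1.33%. No motif of this set with fixed letters contains another, but the CArG box, with A or T in its middle, can hold TATAAA or CCAAT. Matches that overlapped in a sequence were each counted.

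The members moved together between libraries by small amounts. Their mean ranged from 7.587 (EGF+bFGF Hmgb2 replicate 2) to 7.947 (EGF+bFGF Neurog2+Hmgb2 replicate 1). It averaged 7.838 ± 0.080 in libraries with Neurog2 (SD, n = 12), against 7.778 ± 0.108 without (n = 13), and 7.762 ± 0.101 with Hmgb2 (n = 13), against 7.856 ± 0.070 without (n = 12). Both pairs of ranges overlapped. In bFGF it was 7.804 ± 0.100 (n = 12), against 7.810 ± 0.101 in EGF+bFGF (n = 13). In the plot by library, the mean of narrower TSS peaks (5.847 to 6.084) was high largely where that of the members was high, and the mean of peaks without a TSS (4.259 to 4.395) was low there.

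**Figure D2:**
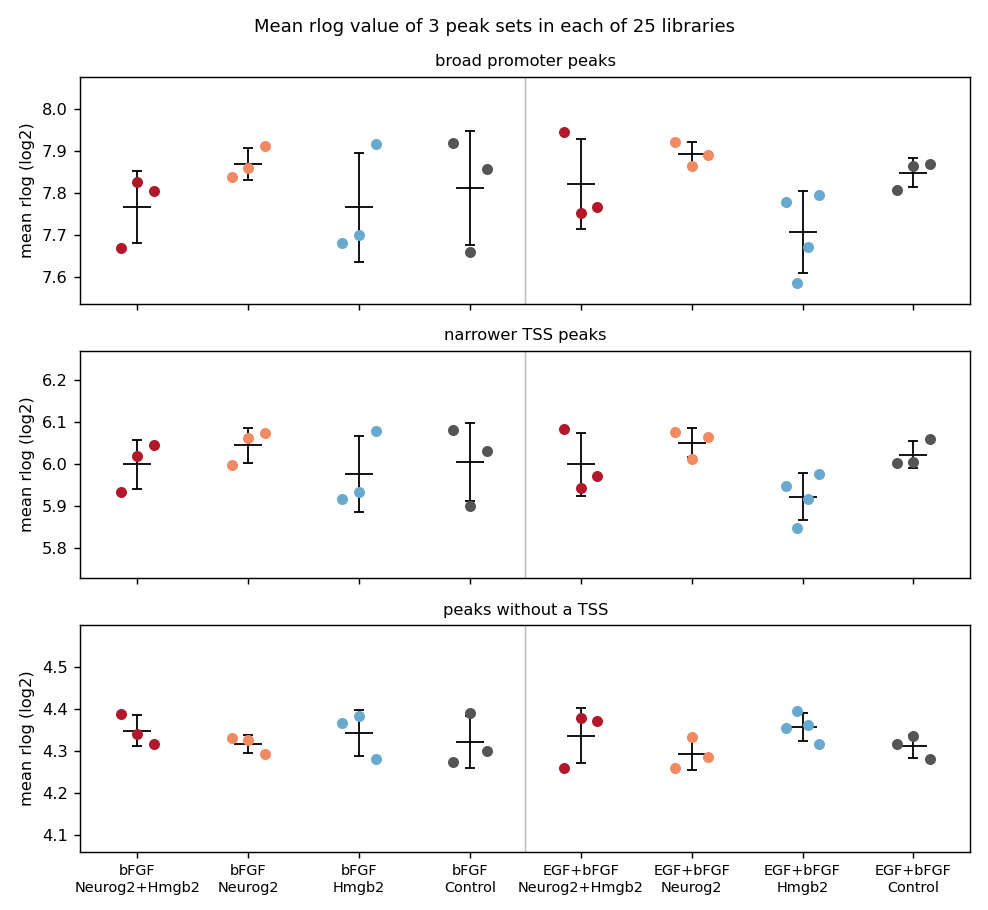
Mean rlog value (log2 scale) over the broad promoter peaks, the narrower TSS peaks and the peaks without a TSS in each of the 25 libraries, by group; points are libraries, the bar with whiskers is the group mean ± SD and each panel spans the same range of values. The panels for promoters share their high and low libraries, and the bottom panel mirrors them, with members between 7.587 and 7.947.

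With Neurog2, 17 of 405 broad promoter peaks were called higher (4.20%, against 11.4% of all peaks) and 10 were called lower (2.47%, against 10.6% of all peaks) by limma, at a Benjamini-Hochberg adjusted p under 0.05 over all peaks, with the Neurog2 difference averaged over 4 pairs of groups. In the table as a whole, narrower TSS peaks had 4.21% higher and 1.67% lower and peaks without a TSS had 13.9% and 13.7%. At an unadjusted p under 0.05, 64 members were higher (15.8%, against 16.1% of all peaks) and 20 lower (4.94%, against 17.4% of all peaks). The median difference was 0.058 for members, against 0.046 for narrower TSS peaks and -0.005 for all peaks, with 291 of 405 positive and 373 within 0.2 on the log2 scale. That median was 0.019 after quantile normalization and 0.022 with libraries centred on promoter peaks, with 165 members negative in each, against 114 as deposited. With libraries centred on the broad promoter peaks it was 0.002, with 201 negative, but that scaling removes any shared shift of the members by construction. The split of calls depended on how libraries were scaled: 11 higher and 19 lower after quantile normalization, 12 and 18 with libraries centred on promoter peaks, and 8 and 21 with libraries centred on the broad promoter peaks. Without bFGF Hmgb2 replicate 3 the calls numbered 39 higher and 10 lower. No member passed the stricter rule that also asks for a difference over 1 (0.256% of all peaks did). In no member did all 12 libraries with Neurog2 lie above all 13 without (0.893% of all peaks) or below them (0.0416% of all peaks).

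The largest rise was at Rcor2 (chr19:7266960-7268997), a member of the CoREST family of corepressors that recruit the histone demethylase Lsd1. Rcor2 had 6.81 to 7.43 (median 7.01) in the 12 libraries with Neurog2, against 6.03 to 6.89 (median 6.44) in the 13 without, and 10 of the 12 lay above all 13. The difference was 0.56 ± 0.087 (SE, limma adjusted p = 1.74e-05), or 1.47-fold on the rlog scale. Hes6 (chr1:91412568-91414755), a helix-loop-helix protein that opposes Hes1 and promotes neuronal differentiation, had 7.18 to 7.76 (median 7.39) with Neurog2, against 6.47 to 7.44 (median 6.81) without. Its groups overlapped, with 5 of 12 above all 13, and the difference was 0.49 ± 0.093 (limma adjusted p = 0.000202). The 3 EGF+bFGF Neurog2 libraries had 7.61, 7.71 and 7.76 at Hes6, and bFGF Neurog2+Hmgb2 replicate 3 had 7.64. Gse1 (chr8:120535771-120538320), a coiled-coil nuclear protein, had 7.12 to 7.94 (median 7.45) with Neurog2, against 6.53 to 7.49 (median 7.17) without, with 4 of 12 above all 13 and a difference of 0.42 ± 0.109 (limma adjusted p = 0.00509).

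The other called rises were between 0.19 and 0.27. They included Bach2, a leucine zipper repressor (0.27), Nrip1, a nuclear receptor corepressor (0.22), Dock4 with Zfp277, where Dock4 activates Rac-type GTPases in cell migration (0.24), Ssc5d, a secreted scavenger receptor (0.25), and the nuclear export receptor Xpo1 (0.19). Nova1, which controls splicing in neurons, had 7.50 to 8.37 (median 8.11) with Neurog2, against 7.30 to 8.17 (median 7.68) without, and a difference of 0.26 (limma adjusted p = 0.0412). The remaining called rises were at Ddit3 with Mbd6, Dcaf6 with Mpc2, Rap2a, Sgms1, Trappc3, Tsc22d2, Vcan and Ing2.

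**Figure D3:**
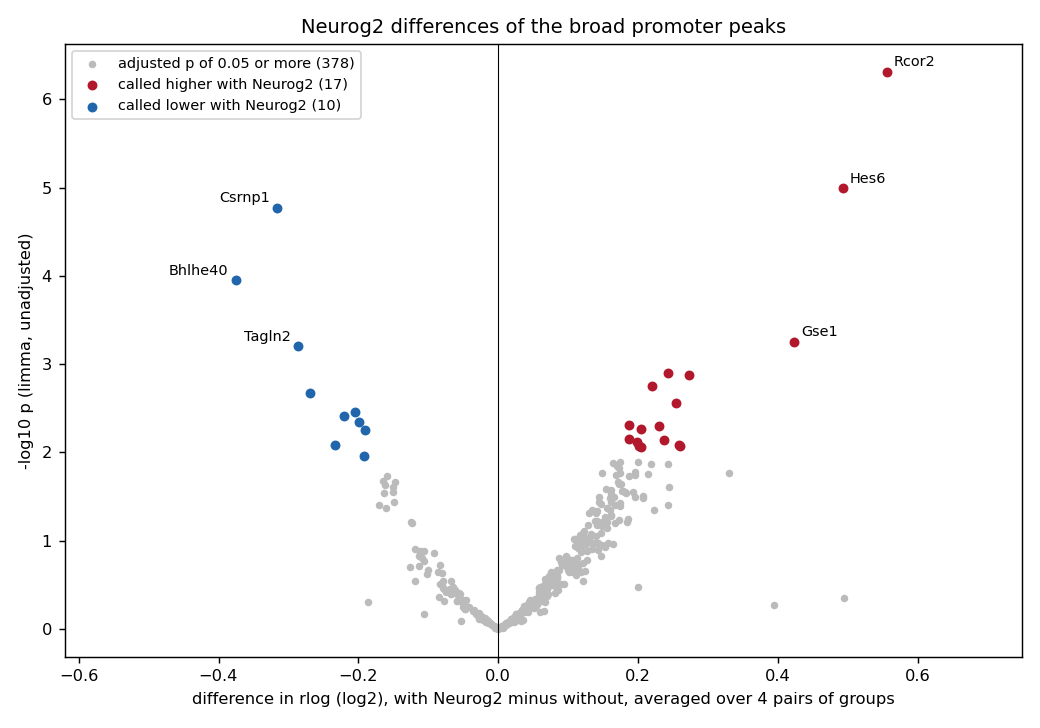
Difference in rlog (log2 scale, with Neurog2 minus without, averaged over 4 pairs of groups) against -log10 of the unadjusted limma p for the 405 broad promoter peaks; red and blue points passed an adjusted p of 0.05 and the leading 6 are named. The 17 red points start at 0.19 and end with Rcor2 at 0.56, and the 10 blue points reach -0.38 at Bhlhe40.

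The largest fall was at Bhlhe40 (chr6:108658565-108661120), a helix-loop-helix repressor linked to the circadian clock and stress. Bhlhe40 had 7.70 to 8.57 (median 8.15) with Neurog2, against 8.16 to 8.79 (median 8.48) without, with 7 of 12 below all 13. The difference was -0.38 ± 0.084 (SE, limma adjusted p = 0.00144). Csrnp1 (chr9:119981068-119984916), a nuclear protein induced by several growth signals, came closest to separating the groups. It had 7.52 to 7.97 (median 7.70) with Neurog2, against 7.89 to 8.27 (median 7.97) without. Of the 12 libraries, 11 lay below all 13, the exception being bFGF Neurog2 replicate 2 at 7.97, and the difference was -0.32 ± 0.062 (limma adjusted p = 0.000307). That exception also had the lowest value of the 12 at the Neurog2 peak (10.60). Tagln2 (chr1:172499727-172502381), an actin-binding protein, had 7.06 to 7.78 (median 7.25) with Neurog2, against 7.29 to 7.74 (median 7.62) without. Here 9 of 12 lay below all 13, while bFGF Neurog2 replicate 2 had the 7.78, and the difference was -0.29 ± 0.075 (limma adjusted p = 0.00561).

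Smaller called falls were at Zfp467 (-0.27), Per1, a core clock repressor (-0.23), Ccn1, a matricellular YAP target (-0.22), Cavin3, a caveolar coat protein (-0.20), Nab2 with Nemp1, where Nab2 is a corepressor of Egr factors (-0.20), Pcdh7, a protocadherin (-0.19), and Fam20c, a kinase of secreted proteins (-0.19). The direction of all 27 calls stayed the same under the 33 alternatives run for each, and 9 of them, Rcor2, Hes6, Gse1, Dock4 with Zfp277, Bach2, Nrip1, Csrnp1, Bhlhe40 and Tagln2, kept the call under every one, including without the 7 libraries of the high Sox2 peak.

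**Figure D4:**
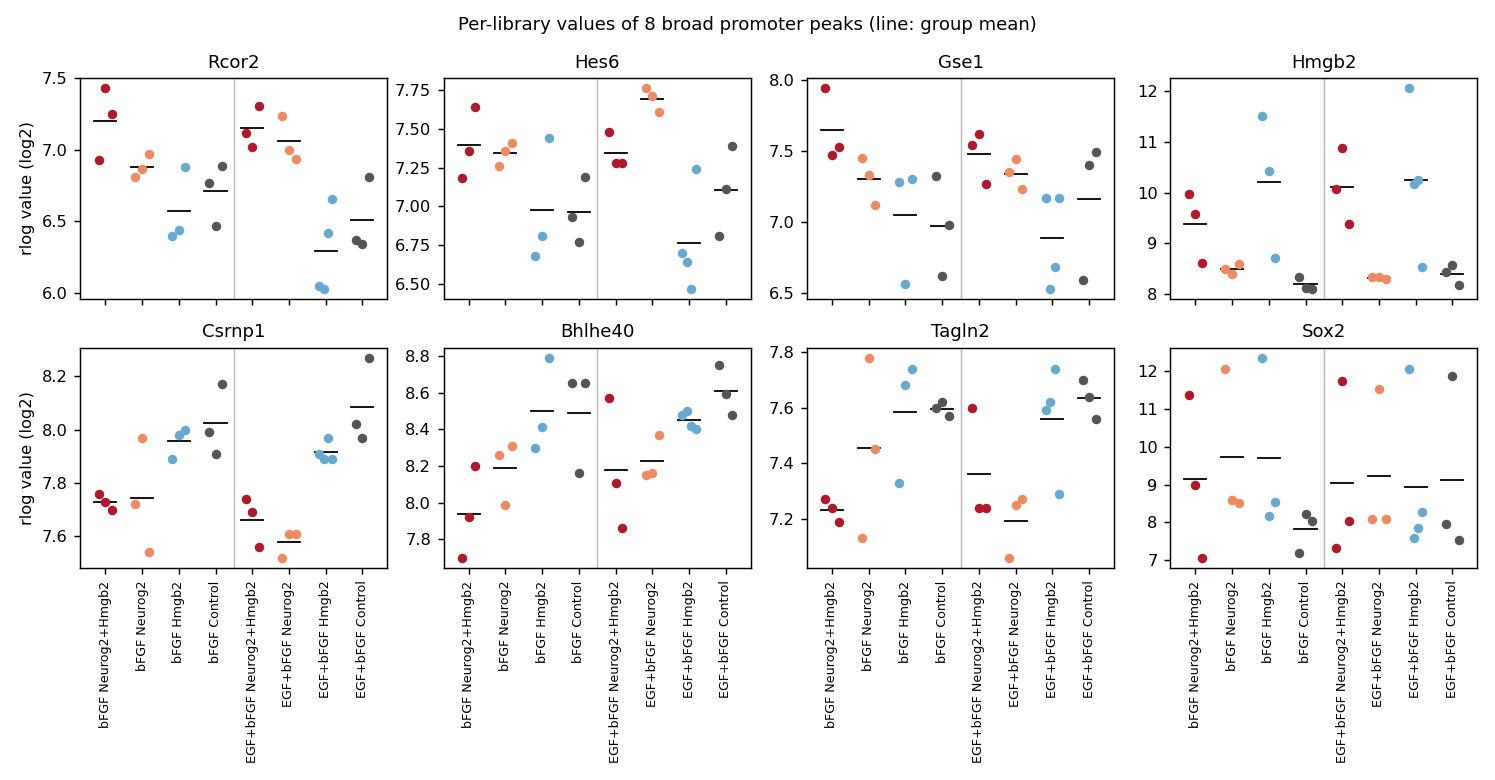
Per-library rlog values (log2 scale) of 8 broad promoter peaks in the 8 groups, bFGF left and EGF+bFGF right of the grey line; points are libraries, the line is the group mean and each panel has its own axis. Rcor2, Hes6 and Gse1 are higher and Csrnp1, Bhlhe40 and Tagln2 lower in the red and orange Neurog2 groups, Hmgb2 is spread from 8.53 to 12.05 in libraries with Hmgb2, and Sox2 has 7 libraries above 11.

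By gene list, the 55 members that hold transcription factors had 4 called higher (11.4% of all peaks) and 2 lower (10.6% of all peaks) with Neurog2 and a median of 0.081, against 0.058 for all members and -0.005 for all peaks. The 38 housekeeping members had no call in either direction and a median of 0.037. Of the 5 neurogenic members, Rcor2 and Hes6 were called higher. Pou3f2, a POU factor of neuronal maturation, had a difference of 0.12, Sox11 had 0.09 and Sox12 had -0.05, none of them called. Neither glial factor passed the test: by limma, Nfib had -0.05 (adjusted p = 0.753) and Sox2 had 0.39 ± 0.634 (SE, adjusted p = 0.712). The Sox2 values split into the 7 high libraries and the others and may not be accessibility of that locus, so its difference is poorly determined. Among actin and YAP-TEAD members Tagln2 and Ccn1 were called lower, as were 10.6% of all peaks, none of 7 was called higher, and the median was -0.111. None of the 7 growth factor response members was called. Jun had 0.17 (limma adjusted p = 0.0627) and Egr1 -0.00, and Rbpj, the DNA-binding partner of Notch, had 0.20 (limma adjusted p = 0.0562). Chromatin regulators had 2 calls among 21 members, both higher, at Rcor2 and Mbd6 (11.4% of all peaks were called higher).

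The E-box letters CAGATG were less frequent in 2001-base windows of members (53.7%) than of narrower TSS peaks (65.9%). The median width of narrower TSS peaks was 937, so their windows take in sequence outside the peak. In the shorter windows at the TSS the shares were 9.43% and 9.94%. In the 2001-base windows, CAGATG occurred in 12 of the 17 members called higher (1.12 per window) and in 6 of the 10 called lower (0.700 per window). Over all members it occurred 0.822 times per window. GGAATG, bound by TEAD factors, was in 9 of 17 called higher (0.941 per window) and 7 of 10 called lower (1.70 per window), and TGAGTCA was in 5 of 17 and 4 of 10. Over all members GGAATG was in 49% (0.804 per window) and TGAGTCA in 18.3%. Over whole peaks, Rcor2, Hes6 and Gse1 held 1 CAGATG each. Rcor2 also held 2 GGAATG, Hes6 held 1 GGAATG and Gse1 held 1 TGAGTCA. Csrnp1 held 3 CAGATG, 3 TGAGTCA and 4 GGAATG, and Tagln2 held 4 GGAATG, 1 TGAGTCA and no CAGATG. Bhlhe40, the largest fall, held 1 CAGATG, 1 TGAGTCA and no GGAATG. These are counts of letters in few regions and were not tested.

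Within each culture, fewer members passed. In EGF+bFGF, Neurog2 against Control called 0 members higher (against 3.94% of all peaks) and 2 lower (0.494%, against 1.07% of all peaks). At an unadjusted p under 0.05, 9 members were higher (2.22%, against 9.22% of all peaks). Csrnp1 differed by -0.51 ± 0.125 (SE, limma adjusted p = 0.0141), with 7.52, 7.61 and 7.61 in the Neurog2 libraries, against 7.97, 8.02 and 8.27 in the Control libraries, which did not overlap. Per1 differed by -0.62 ± 0.167 (limma adjusted p = 0.0242), with 6.28, 6.52 and 6.67, against 6.70, 7.16 and 7.49, and these did not overlap either. Per1 also lost its call without EGF+bFGF Control replicate 2 (0.0841) and without EGF+bFGF Neurog2 replicate 2 (0.0643). Both calls were lost without EGF+bFGF Neurog2 replicate 1 (adjusted p of 0.0909 for Csrnp1 and 0.185 for Per1), without EGF+bFGF Control replicate 3 (0.0884 and 0.178) and without the 7 libraries of the high Sox2 peak (0.0967 and 0.198). In the 18 libraries left by the last of these, the differences were -0.58 for Csrnp1 and -0.62 for Per1. In bFGF, Neurog2 against Control called 0 members higher (against 0.898% of all peaks) and 0 lower (against 0.353%) by limma. At an unadjusted p under 0.05, 23 members were higher (5.68%, against 8% of all peaks) and 12 lower (2.96%, against 6.27%). The smallest p was at Trappc3, a vesicle-tethering subunit, with 0.46 ± 0.141 (limma adjusted p = 0.0979). Without bFGF Neurog2 replicate 1, 1 member was called higher in bFGF. The Neurog2 difference was not shown to differ between cultures. For the interaction limma called 0 members (0% of all peaks). At an unadjusted p under 0.05, 1 member was higher (0.247%, against 2.97% of all peaks) and 10 lower (2.47%, against 3.41%).

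With Hmgb2, 1 member was called higher (0.247%, against 0.0328% of all peaks) and 0 lower (0% of all peaks; 79 members at an unadjusted p under 0.05, or 19.5%, against 4.79% of all peaks), by limma with the difference averaged over 4 pairs. That member was Hmgb2 itself (chr8:57510933-57512935). It had 8.53 to 12.05 (median 10.07) in the 13 libraries with Hmgb2, against 8.11 to 8.60 (median 8.34) in the 12 without, and 12 of the 13 lay above all 12. The difference was 1.63 ± 0.266 (SE, limma adjusted p = 0.00457), or 3.10-fold on the rlog scale, and it was the 1 member that also passed the rule of over 1 (0.0307% of all peaks did). The libraries labelled EGF+bFGF Hmgb2 replicate 4 (8.53), bFGF Neurog2+Hmgb2 replicate 3 (8.62) and bFGF Hmgb2 replicate 3 (8.71) were at or barely above the level without Hmgb2, so the peak gave little or no sign of the virus in these 3. Without the 7 libraries of the high Sox2 peak the difference was 1.18 (limma adjusted p = 0.0555). The peak contains the first 150 bases of the 630-base Hmgb2 coding sequence, which the virus carries too, with 100% identity, so accessibility of the Hmgb2 promoter and reads from the virus cannot be told apart. No other member shares sequence with the coding sequences of Hmgb2 or Neurog2.

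The rest of the members were slightly lower with Hmgb2, with a median of -0.103, against -0.065 for narrower TSS peaks, 0.031 for peaks without a TSS and 0.005 for all peaks, and 357 of 405 were negative. The size of this shift depended on the scaling. The median was -0.061 with libraries centred on promoter peaks (320 members negative) and -0.012 after quantile normalization (226 negative). Centring libraries on the broad promoter peaks removes any shared shift of the members by construction. It gave -0.001 and moved the median of all peaks by 0.102, so it cannot show whether the members shifted. The members nearest to a call were Arid4b with Ggps1 (-0.28 ± 0.063, limma adjusted p = 0.157), where Arid4b is a subunit of the Sin3 deacetylase complex, the translation factor gene Eif4e (-0.25, adjusted p = 0.266), and Spry2 (-0.22, adjusted p = 0.299), a feedback inhibitor of receptor tyrosine kinases. Spry2 had 7.75 to 8.33 (median 8.07) with Hmgb2, against 8.04 to 8.45 (median 8.29) without, and the groups overlapped.

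Adding Hmgb2 to Neurog2 gave no call. In EGF+bFGF, Neurog2+Hmgb2 against Neurog2 called 0 members higher (against 0.0153% of all peaks) and 0 lower (0% of all peaks) by limma. At an unadjusted p under 0.05, 3 members were higher and 3 lower (0.741% each, against 3.01% and 1.98% of all peaks). The smallest p was that of Hmgb2 (1.78 ± 0.540, limma adjusted p = 0.956). In bFGF it called 0 members higher and 0 lower by limma (0% of all peaks each). At an unadjusted p under 0.05, 5 members were higher (1.23%, against 3.8% of all peaks) and 57 lower (14.1%, against 3.31% of all peaks). The lower ones were led by Arid4b with Ggps1 at -0.50 ± 0.128 (limma adjusted p = 0.484) and the RNA-binding protein gene Hnrnpul1 at -0.48 ± 0.123 (limma adjusted p = 0.484). For the interaction of Neurog2 with Hmgb2, limma called 0 members (0% of all peaks). At an unadjusted p under 0.05, 17 were higher (4.2%, against 4.45% of all peaks) and 11 lower (2.72%, against 2.63%). The smallest p values were at AW822073 (1.11, limma adjusted p = 0.112) and Duxf3 (1.10 ± 0.255 SE, limma adjusted p = 0.115). These peaks lie near each other in the order of peaks, so they may not be independent. The mostly repeat-masked Gm21738 (1.33), Gm10715 cluster (1.32), Gm21887 (0.83) and Gm47283 (0.72) were positive too, and their levels are uncertain. For the interaction of Hmgb2 with culture limma called 0 (0% of all peaks). At an unadjusted p under 0.05, 3 were higher (0.741%, against 2.2%) and 1 lower (0.247%, against 2.3%). Calls for the interaction of Neurog2 with Hmgb2 numbered 4 without EGF+bFGF Hmgb2 replicate 4 and 3 without EGF+bFGF Control replicate 1. Both of these comparisons of Neurog2+Hmgb2 share their Neurog2 libraries with the Neurog2 comparisons above.

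Culture gave no call. In bFGF against EGF+bFGF, limma called 0 members higher (against 0.342% of all peaks) and 0 lower (against 0.177%). At an unadjusted p under 0.05, 4 members were higher (0.988%, against 10.5% of all peaks) and 9 lower (2.22%, against 8.5%). Of the 405 differences, 395 were within 0.2. Calls numbered 3 without bFGF Neurog2 replicate 1 and 1 without bFGF Control replicate 1. The median was -0.016, against 0.002 for all peaks. Gli3, a mediator of Hedgehog signalling, came nearest, with 7.18 to 7.77 (median 7.50) in bFGF, against 7.55 to 7.91 (median 7.73) in EGF+bFGF, 8 of 12 below all 13, and a difference of -0.23 ± 0.066 (SE, limma adjusted p = 0.0666). Basp1, a membrane protein of growing axons, had 7.00 to 7.68 (median 7.44) in bFGF, against 6.75 to 7.72 (median 7.02) in EGF+bFGF, and a difference of 0.29 ± 0.086 (limma adjusted p = 0.0727). Pou3f2 had a difference of -0.21 (limma adjusted p = 0.223), with 5 of 12 bFGF libraries below all 13 in EGF+bFGF. The growth factor response members, such as Dusp6 and Spry2, had a median of -0.027 and no call.

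**Figure D5:**
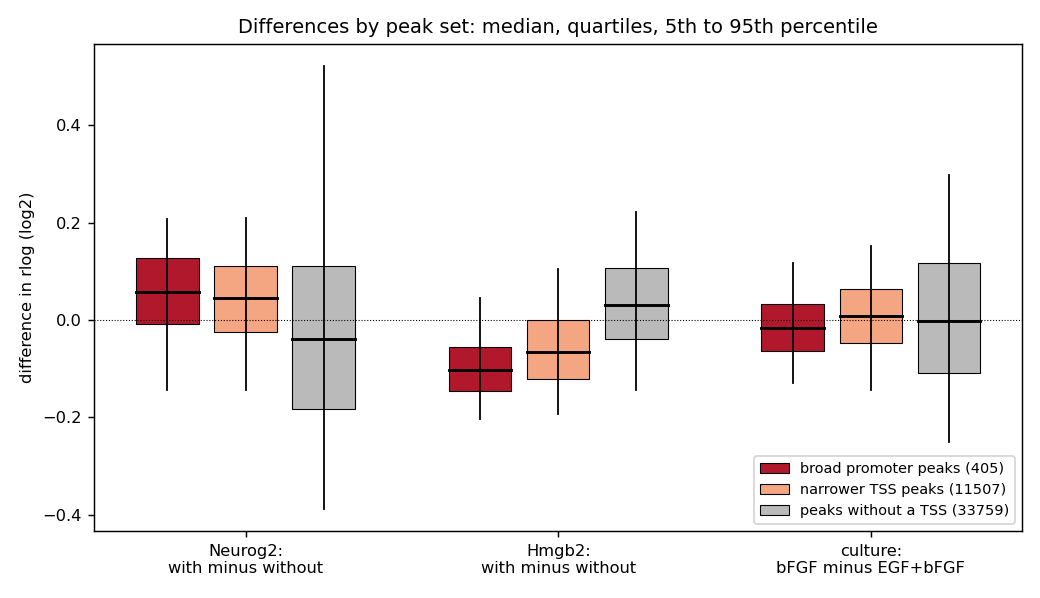
Differences in rlog (log2 scale) for Neurog2 (with minus without), Hmgb2 (with minus without) and culture (bFGF minus EGF+bFGF) in 3 sets of peaks; the box spans the quartiles, the line in it is the median and the whiskers run from the 5th to the 95th percentile. Members and narrower TSS peaks have a narrower spread for Neurog2 than peaks without a TSS, and members have the lowest of the 3 medians for Hmgb2, -0.103.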

How the data were processed

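ATAC-seq was analysed in 25 libraries. Per the labels and the methods of the study, the authors trimmed reads with cutadapt, aligned them to mm10 with Bowtie2, called peaks with Genrich, merged them into 1 table and deposited log2-scale rlog values made from read counts with DESeq2 1.36.0. Counts per peak were not used here, so depth and counting error are unknown. The authors' peak widths were taken as deposited.

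Members were found with Python 3.11.15 and GENCODE vM21 transcripts. Differences were fitted on all 45672 peaks with limma 3.58.1 in R 4.3.3 (8 group means, empirical Bayes with a mean trend, 17 residual degrees of freedom), with Benjamini-Hochberg adjustment over all peaks, a call at an adjusted p under 0.05 and no pseudocount or filter. The averaged Neurog2, Hmgb2 and culture differences weight 4 pairs of groups equally. The scripts were tested on simulated data. The members and the gene lists were chosen with earlier results of these data known. Named were the called members with the smallest adjusted p (8 a direction), the 5 widest, the 5 highest and 5 lowest per length, up to 6 of each gene list, all neurogenic and glial factor members, the neighbours of the width limit, the 3 smallest p in each other comparison, Neurog2 and Hmgb2; others were named after their values were seen. Alternatives covered scaling, a replicate block, the prior, a filter on low values, each library left out, the width limit and the TSS definition. Some items withheld for evaluation are not reported here.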

Additional observations from a re-analysis of the deposited data

Results flagged for a closer look

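In the group of 4 EGF+bFGF Hmgb2 libraries, 1 library stood off from the others, relative to the range of the group, at 5 of the named members. These were 5 of 129 groups of values looked at in this way, and chance alone gives about 1 in 20. Sox2 had 12.06 in replicate 1, against 7.58, 7.85 and 8.27 in the other replicates. At Gm21887, replicate 1 had 9.24, against 10.28, 10.26 and 10.15, and at Atp6v1a with Naa50, a subunit of the vacuolar proton pump beside an acetyltransferase, it had 6.93, against 7.38, 7.31 and 7.38. Replicate 1 is among the 7 libraries with a high Sox2 peak. Eif4e had 7.30 in replicate 4, against 7.19, 7.20 and 7.18, a small gap beside the median within-group SD of members (0.174), and Ube2d3, a ubiquitin-conjugating enzyme, had 7.99 in replicate 2, against 8.32, 8.30 and 8.28.

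At Kat2b, a histone acetyltransferase, Neurog2 against Control had opposite signs in the 2 cultures, with no overlap of the libraries within either. The difference was -0.24 in bFGF and 0.26 in EGF+bFGF. The Neurog2 by culture term was -0.43 (limma unadjusted p = 0.00445, adjusted p = 0.728 over all peaks), so the difference between cultures did not pass the correction.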

How the results depend on the processing

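With each library left out in turn, members called for Neurog2 numbered 18 to 49, for culture 0 to 3, for Neurog2 against Control 0 to 4 in EGF+bFGF and 0 to 1 in bFGF, and for the Neurog2 by Hmgb2 interaction 0 to 4. The 49 calls came without bFGF Hmgb2 replicate 3 (24 of the 27 shared), and the 3 for culture and the 1 in bFGF without bFGF Neurog2 replicate 1. The 4 for the interaction and 4 in EGF+bFGF came without EGF+bFGF Hmgb2 replicate 4. The Hmgb2 call stayed at 1. Median differences of members ran between 0.036 and 0.08 for Neurog2, -0.122 and -0.084 for Hmgb2, and -0.031 and 0.005 for culture.

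The labels do not say that replicate numbers pair libraries, and not every same-numbered pair of groups in a culture deviated together: the correlation was over 0.1 in 12 of 18 pairs in bFGF (-0.47 to 0.40) and in 5 of 18 in EGF+bFGF (-0.28 to 0.37). The libraries with a high Sox2 peak were replicate 1 in 3 of 3 cases in bFGF and replicate 2 in 3 of 4 in EGF+bFGF. With the numbers as a replicate block, 38 members were called for Neurog2, 5 for Neurog2 against Control in EGF+bFGF and 5 for the Neurog2 by Hmgb2 interaction. The count in EGF+bFGF was also 5 with libraries centred on promoter peaks, 5 with the libraries of that culture only and 1 with the TSS of the gene record. A width of 1500 or more gave 93 calls for Neurog2, 2 for culture, 7 for Neurog2 in EGF+bFGF and 3 in bFGF, and a width of 3000 or more gave 5 for Neurog2, 0 for Hmgb2 and 1 for Neurog2 in EGF+bFGF. An adjusted p under 0.01 left 7 for Neurog2 and 0 in EGF+bFGF, and a difference over 1 left 0 for both.

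Chosen after seeing the data were 3 alternatives. Without the 7 libraries with a high Sox2 peak, 20 members were called for Neurog2 (13 of the 27 shared), 0 for Hmgb2 and 0 for Neurog2 in EGF+bFGF. With these libraries as a term the counts were 39 for Neurog2, 1 for culture and 6 for Neurog2 in EGF+bFGF. With libraries centred on the broad promoter peaks the Hmgb2 median was -0.001, but that scaling removes any shared shift of the members by construction. Of the 27 Neurog2 calls, 18 were lost under 1 or more of 33 alternatives and 0 changed direction, and the cause was not tested. The rlog scale and the unknown depth limit what small differences can show.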
